A study of Mus musculus with 4 samples.

Results

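The transcripts described here come from 2290 stretches of the mouse genome that a microarray design covers as intergenic noncoding RNA. Whether they lie between genes was not checked against an annotation. Each stretch, called an interval below, is listed on the array by chromosome, start, end and strand in build mm9, and has no gene symbol. The array carries 16181 probes to 4607 such intervals, counting each strand on its own. Probes were selected on their measured signal: a probe was kept if, in 1 or both of the 2 cell fractions compared, it was well above background on each array. This left 4665 probes, 28.8% of those designed, and 49.7% of the designed intervals. How often these probes were detected is therefore a description and was not tested.

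Intergenic noncoding RNAs are transcripts without a long reading frame that arise between protein-coding genes. They are often present at lower levels than messenger RNAs and in fewer cell types, and some act on neighbouring genes or on chromatin. Many intervals of this kind are known only as transcribed stretches, so that a probe stands for a position and not for a gene with a known product. The array marks each interval F or R, read here as the forward and the reverse strand; which strand's RNA a probe detects is not given in the sources used here, and every strand named below rests on that reading.

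All cells came from EB5 mouse embryonic stem (ES) cells that carry Venus, a fluorescent protein, as a reporter of the trunk homeobox gene Hoxb6. They had been differentiated for 6 days on OP9 cells, a bone marrow stromal line used as a feeder layer, and stained for Flk-1. Flk-1 is the VEGF receptor encoded by Kdr and marks mesoderm with vascular and blood potential. Sorting divided the Flk-1+ cells by Venus into a positive and a negative fraction, and total RNA of each was hybridised to 2 single-colour Agilent arrays. The fractions share the line, the reporter, the feeder layer and the day, and differ by label only in reporter fluorescence. No source used here says that the 2 arrays of a fraction represent separate cultures. The p-values therefore cover the spread among these samples alone, and that spread may be technical. In bulk samples, fewer cells of a type and less RNA per cell cannot be told apart.

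The 4 arrays lay on 1 slide and were read in 1 scan, with between 50.7% and 53.0% of the spots well above background and 0 saturated. The Venus-negative arrays lay in column 2 of the slide and the Venus-positive arrays in column 3, so slide column and fraction cannot be told apart. Hoxb6 had log2 levels of 1.23 and 0.98 in the Venus-negative and 2.00 and 2.24 in the Venus-positive arrays, a change of 1.01 ± 0.16 that did not pass the threshold (limma adjusted p = 0.0716; 0.0338 with model-based background correction). The summed level of 5 ES cell markers was 64.0 and 38.2 in the Venus-negative against 13.4 and 8.73 in the Venus-positive arrays, and 0 of the 5 passed. Levels were summed unlogged, so that the brightest marker, here Dppa5a, weighs most. Dppa5a had a log2 change of -2.5 and Pou5f1 of -2.4, against -0.7 for Esrrb, -0.3 for Zfp42 and 0.2 for Nanog. Of 8 OP9 and adipocyte markers 7 were measured, with sums of 72.1 and 70.8 against 61.8 and 46.9, and 0 passed. The 5 endothelial and Flk-1+ mesoderm markers summed to 114 and 107 against 132 and 144, and 1, the angiopoietin receptor Tek, was higher (limma adjusted p = 0.0479). The brightest of them, Kdr and Tal1, had log2 changes of 0.4 and -0.2, against 1.5 for Tek, 1.6 for Cdh5 and 1.4 for Pecam1. Of 4 endoderm markers 2 were measured, with sums of 3.05 and 4.0 against 7.18 and 9.18. They went opposite ways, Sox17 by 1.35 ± 0.24 and Foxa2 by -1.19 ± 0.27, so the sum follows the brighter Sox17. Of 4 blood markers 3 were measured, with 38.8 and 88.2 against 32.5 and 39.1, the second Venus-negative array standing apart. Of the endoderm and blood markers 0 passed. Csf3, Afp, Ttr and Ptprc were not well above background on both arrays of either fraction. The part of other cell types in the interval values was not tested.

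Detection was less frequent for the intergenic probes than for the rest of the array. Of the other 39500 probes, 23234 (58.8%) passed the same criterion. A designed interval had between 1 and 10 probes, with a median of 3. Every designed probe passed in 686 intervals, and in 456 of the 3917 intervals that had several. In 930 intervals a single probe passed although several were designed. The largest number of passing probes was 10, reached in 7 intervals. Most detected intervals thus rest on few probes: 1160 had exactly 1 passing probe and 1130 had at least 2.

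Detection was spread over the genome, as the plot of shares by chromosome shows. The share of designed intervals with a passing probe ran from 42.2% on chromosome 18 to 56.3% on chromosome 14. By strand, a passing probe was found in 1127 of 2318 forward intervals (48.6%) and 1163 of 2289 reverse intervals (50.8%). Short intervals were detected less often. With the intervals divided by length into 4 groups of like size, the share was 39.9% at 62 to 1758 bases, against 52.2%, 52.9% and 53.9% in the 3 groups of longer intervals. The short group also had fewer probes per interval, with a mean of 2.55 against 3.56 to 4.19, so that length and number of probes move together. The share of single probes that passed was 25.3% in the short group and 27.6% to 31.5% in the others.

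**Figure D1:**
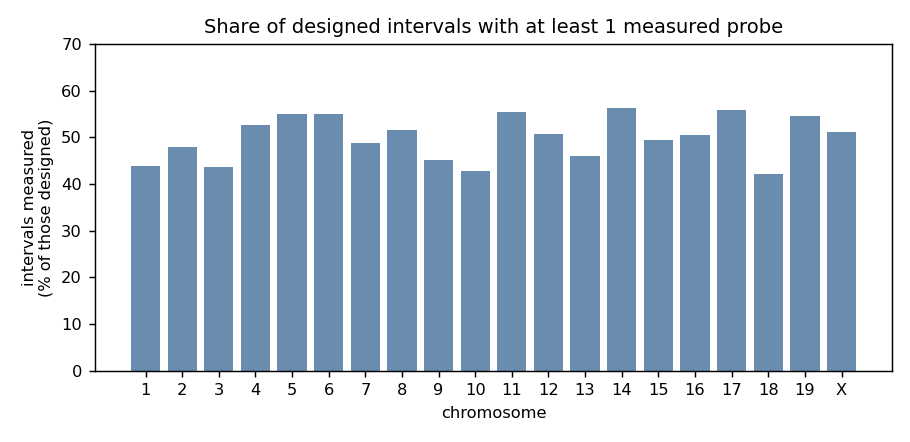
The bars give, for each chromosome on the horizontal axis, the percentage of designed intervals with at least 1 passing probe. Shares stay between about 40% and 60%, from 42.2% on chromosome 18 to 56.3% on chromosome 14.

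The passing probes were mostly dim. Their mean processed signal, a background-subtracted intensity without unit, had a median of 56.7 and ran from 9.14 to 232600. The 75th percentile of each array, by which levels are given below, lay at a signal between 347 and 429. Of the 4665 probes, 3918 were well above background on all 4 arrays, 495 on 3 and 252 on 2. Of those on 2, 206 were dim on both Venus-negative arrays and 46 on both Venus-positive arrays. Of all spots, 50.7% and 52.3% were well above background on the Venus-negative arrays, and 52.7% and 53.0% on the Venus-positive arrays. How many features of the whole array were dim in each fraction is not given here. Just inside the criterion, these 252 probes had a median signal of 21.3 in their brighter fraction (12.7 to 282). Just outside it, 1676 probes well above background on 1 array, or on 1 array of each fraction, had a median of 15.9 (7.2 to 367).

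The design sets Hoxb6 reporter-positive against reporter-negative cells within the Flk-1+ population, and asks which transcripts differ. At 11 intervals the RNA differed past the threshold: 7 were higher and 4 lower in the Venus-positive cells. They were counted among the 1648 intervals whose passing probes all lay well above background on all 4 arrays. A probe that passed through 1 fraction alone was kept because of its signal there, so its difference is not an independent result. The 7 higher intervals were 0.425% of these and the 4 lower 0.243%. In the same fit, over 19340 features measured on all 4 arrays, genes included, 1.04% were higher and 1.44% lower. An interval's value was the mean log2 level of its passing probes, and calls were made with limma at a Benjamini-Hochberg adjusted p under 0.05 over all features. The lowest adjusted p of an interval was 0.0299.

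At the level of single probes, 15 of the 3918 were higher (0.383%) and 11 lower (0.281%), against 0.713% and 1.12% of the 21610 features measured on all 4 arrays. At an unadjusted p under 0.05, 340 probes (8.68%) were higher and 332 (8.47%) lower, where the shares of all features were 11.7% and 10.8%. At least 2-fold differences were seen in 54 probes upwards (1.38%) and 78 downwards (1.99%), against 2.67% and 3.20%. In this fit the intergenic probes thus differed between the fractions less often than the features of the array as a whole. That difference in shares was not tested. The median log2 change of the probes was -0.01, like that of all features (-0.01). Without any 1 of the 4 arrays, 0 probes and 0 intervals passed in limma, with 365 to 534 probes and 114 to 183 intervals at an unadjusted p under 0.05.

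Replicate arrays of a fraction differed more for these probes than for the other features. In the Venus-negative pair of arrays the median absolute log2 difference was 0.207, against 0.158 for other features. In the Venus-positive pair it was 0.184, against 0.140. Between arrays of different fractions it was 0.234 to 0.291 for the intergenic probes and 0.224 to 0.260 for the others. For the typical probe the difference between fractions was therefore little larger than that between replicates.

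**Figure D2:**
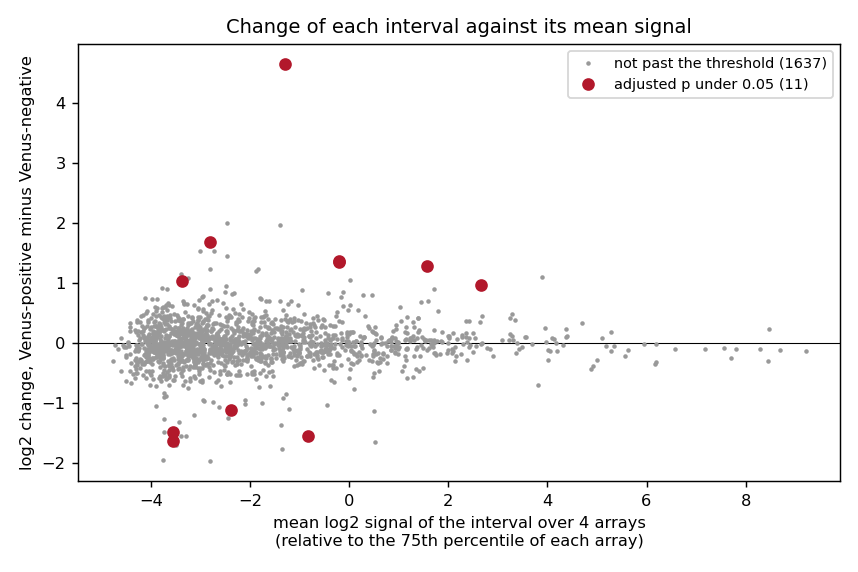
Each point is 1 of the 1648 intervals measured on all 4 arrays, with its mean log2 level on the horizontal axis and its log2 change, Venus-positive minus Venus-negative, on the vertical axis. The 11 red points passed the adjusted p of 0.05; the highest lies at 4.65, and most other points lie close to 0.

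The largest difference at an interval measured on all 4 arrays was an increase at chr1:63264155-63345773 on the forward strand. Its log2 levels were -3.53 and -3.72 in the Venus-negative and 1.29 and 0.77 in the Venus-positive arrays. The fractions lay far apart with no overlap, a 25.1-fold increase (log2 change 4.65 ± 0.22, limma adjusted p = 0.0299). This value rests on 1 of 5 designed probes, the other 4 having not passed the detection criterion. Neighbouring measurements did not show the increase. The reverse strand of the same positions, also with 1 probe, changed by -0.03 ± 0.09 (limma adjusted p = 0.886). A forward interval that overlaps it at chr1:63319842-63349796 changed by -0.76 ± 0.18 (limma adjusted p = 0.120).

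An increase with several probes lay at chr1:82895400-82897576 on the forward strand, a stretch of 2177 bases. Its 3 designed probes all passed detection, and each was higher on its own, by 1.27 to 1.30 on the log2 scale. The interval's levels were 0.93 and 0.90 in the Venus-negative and 2.29 and 2.13 in the Venus-positive arrays. These do not overlap, and the change was 1.29 ± 0.11 (2.44-fold, limma adjusted p = 0.0338). On the opposite strand, 4 of 9 probes of a longer interval, chr1:82892851-82943201, also had positive changes, with a mean of 0.72 ± 0.15 that did not pass the threshold (limma adjusted p = 0.101).

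Another increase lay in a group of overlapping intervals on chromosome 14. At chr14:65430484-65432413 on the reverse strand, 3 of 3 probes gave levels of 2.24 and 2.09 in the Venus-negative and 3.20 and 3.08 in the Venus-positive arrays. The fractions were separate, with a change of 0.97 ± 0.11 (1.96-fold, limma adjusted p = 0.0475). A further 4 intervals of this group were measured on both strands, and all had positive changes that did not pass the threshold. The reverse interval chr14:65431652-65437902, in which all 10 designed probes passed detection, changed by 0.71 ± 0.11, every probe being positive (0.48 to 0.94; limma adjusted p = 0.0667). Its forward counterpart, with 5 of 10 probes, changed by 0.62 ± 0.10 (limma adjusted p = 0.0691). Shorter reverse intervals at chr14:65433420-65434061 and chr14:65436123-65436905 changed by 0.71 ± 0.10 and 0.93 ± 0.22. Since the intervals overlap, their probes may report the same RNA and are not independent of each other.

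The other 4 increases each rest on 1 probe. At chr9:24292762-24307658 on the forward strand, levels rose from -3.65 and -3.68 to -1.93 and -2.02, a change of 1.69 ± 0.10 (limma adjusted p = 0.0299). At chr1:85156338-85167730 on the reverse strand they rose from -0.76 and -1.02 to 0.56 and 0.39 (1.37 ± 0.14, limma adjusted p = 0.0421). At chr8:19978155-19979027 on the reverse strand, where the single designed probe passed detection, they rose from -0.91 and -0.84 to 0.44 and 0.52 (1.35 ± 0.10, limma adjusted p = 0.0305). The fractions did not overlap at any of these. The last was chr5:100849748-100858532 on the reverse strand, with -3.85 and -3.95 against -2.84 and -2.87 (1.04 ± 0.10, limma adjusted p = 0.0369). It lies inside a longer reverse interval, chr5:100845342-100869667, where 7 of 8 probes passed detection and the mean change was -0.21 ± 0.15 (limma adjusted p = 0.477). Intervals overlapping the others did not pass either. The reverse interval chr9:24292762-24307562 changed by -0.12 ± 0.23. Changes on the forward and reverse strands were 0.15 ± 0.15 and 0.37 ± 0.26 at chr1:85150625-85185800, and 0.88 ± 0.89 and -0.34 ± 0.49 at chr8:19678750-20038750. The values 0.37 and 0.88 include a probe not well above background on Venus-negative replicate 1.

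The size of several increases depended on how background was treated. With model-based background correction the changes at chr1:63264155-63345773, chr9:24292762-24307658 and chr5:100849748-100858532 were 3.0, 0.71 and 0.25, the last without a call (limma adjusted p = 0.255). With every designed probe averaged, dim or not, they were 0.74, 0.96 and 0.32, and that at chr1:85156338-85167730 was 0.34, and none of the 11 calls passed. The call at chr14:65430484-65432413 was lost with quantile normalization (limma adjusted p = 0.0557) and in the authors' value table (limma adjusted p = 0.0509). That at chr5:100849748-100858532 was also lost when the variance prior followed the signal (limma adjusted p = 0.0516).

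**Figure D3:**
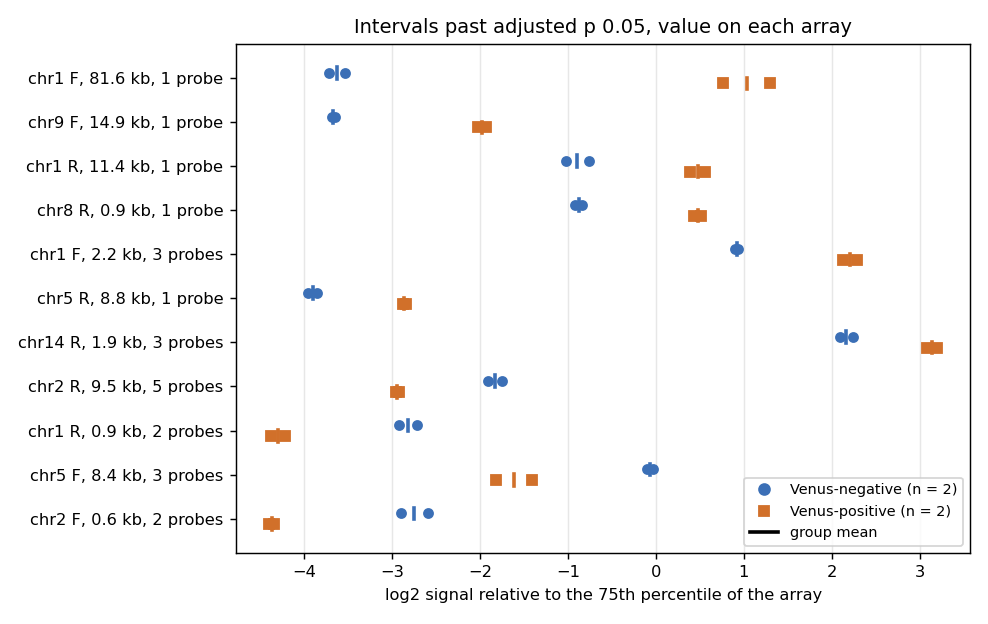
Each row is 1 of the 11 intervals past the threshold, named by chromosome, strand, length and number of passing probes, with the 7 increases above the 4 decreases. The horizontal axis gives the log2 signal relative to the 75th percentile of the array for the 2 Venus-negative (circles) and 2 Venus-positive (squares) arrays, with the mean of each fraction as a bar; in no row do the fractions overlap, and the chromosome 1 forward interval in the top row is the widest apart (4.65).

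All 4 decreases rest on at least 2 probes. The best covered was chr2:35828611-35838083 on the reverse strand, with 5 of 6 designed probes passing detection. Its levels were -1.75 and -1.91 in the Venus-negative and -2.95 and -2.92 in the Venus-positive arrays. The fractions did not overlap, and the interval fell by 1.11 on the log2 scale (SE 0.11, 2.16-fold, limma adjusted p = 0.0386). All 5 probes were lower, by -1.18 to -0.95, and 3 of them passed on their own. A reverse interval inside it, chr2:35829956-35830757, with 1 of 3 probes, changed by -0.08 ± 0.17 (limma adjusted p = 0.816). On the opposite strand of the same positions 1 of 10 probes passed detection, and it changed the other way, by 0.53 ± 0.10 (limma adjusted p = 0.0927).

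At chr5:123439974-123448354 on the forward strand, 3 of 3 probes gave -0.04 and -0.10 in the Venus-negative and -1.82 and -1.41 in the Venus-positive arrays. This is a change of -1.55 ± 0.18 without overlap (2.92-fold lower, limma adjusted p = 0.0463). Under quantile normalization the call was lost (limma adjusted p = 0.0547). An overlapping forward interval, chr5:123440192-123451767, with 4 of 5 probes, changed by -1.25 ± 0.24 (limma adjusted p = 0.0903). On its reverse strand 1 of 5 probes passed detection, through the Venus-negative fraction alone (-3.85 and -3.66). Its Venus-positive levels were -6.49 and -4.45. The first lies under the lowest signal well above background on that array (-5.04), so the lower value is a description. Of the forward intervals here, only the first named passed.

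The remaining decreases were at short intervals with 2 of 3 probes each. At chr2:115900355-115900904 on the forward strand, levels fell from -2.59 and -2.90 to -4.39 and -4.34, a change of -1.62 ± 0.14 (3.08-fold lower, limma adjusted p = 0.0353). A single probe of a longer forward interval around it, chr2:115892960-115911647, changed by 0.06 ± 0.16 (limma adjusted p = 0.861). At chr1:135956616-135957485 on the reverse strand, levels fell from -2.71 and -2.92 to -4.37 and -4.22 (-1.48 ± 0.13, 2.79-fold lower, limma adjusted p = 0.0349). The fractions did not overlap at either. With model-based background correction these changes were -0.58 and -0.55, and that at chr2:35828611-35838083 was -0.62.

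Several differences of like size did not pass the threshold. The intervals named for them were chosen for having no overlap between the fractions, so that separation is not a result. In the direction of an increase, the reverse interval chr4:35106125-35127700 had 1 probe at -2.17 and -2.60 against 0.03 and -0.85 (1.97 ± 0.37, limma adjusted p = 0.0884). The forward strand of the same positions changed by 0.06 ± 0.23. Further values without a call were 1.45 ± 0.25 at chr4:98943050-98959998 on the reverse strand, 1.24 ± 0.38 at chr12:110074255-110075707, 1.23 ± 0.18 at chr1:87348082-87409907 and 1.21 ± 0.29 at chr8:85609155-85615170 on the forward strand. Each of these 5 rests on 1 probe. With median centring the values at chr4:98943050-98959998 and chr1:87348082-87409907 passed (limma adjusted p = 0.0469 and 0.0491).

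In the direction of a decrease, 2 overlapping forward intervals on chromosome 8 gave similar values. At chr8:90048940-90049461, 3 of 3 probes gave -0.68 and -0.28 in the Venus-negative and -2.64 and -1.85 in the Venus-positive arrays (-1.77 ± 0.33, limma adjusted p = 0.0900). At chr8:89996710-90049453, 2 of 3 probes gave 1.11 and 1.56 against -0.60 and -0.03 (-1.65 ± 0.28, limma adjusted p = 0.0756). The fractions were separate at both, as the choice of these intervals required. With model-based background correction both passed, at -1.21 and -1.43 (limma adjusted p = 0.0486 and 0.0351). A reverse interval across the same stretch, chr8:90000619-90061169, changed by -0.05 ± 0.11. On chromosome 7, 2 overlapping forward intervals with 1 probe each also had like values, -1.49 ± 0.23 at chr7:134835448-134842613 (limma adjusted p = 0.0703) and -1.49 ± 0.31 at chr7:134779841-134840591 (limma adjusted p = 0.101). The first of these passed with median centring (limma adjusted p = 0.0497).

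At 4 further intervals with large negative values, 1 Venus-negative array was much brighter than the other. At chr9:88575075-88611650 on the forward strand the levels were -0.14 and -3.53 in the Venus-negative and -3.85 and -3.77 in the Venus-positive arrays, so that the Venus-negative arrays differed from each other more than their mean did from the other fraction (-1.97 ± 1.24, limma adjusted p = 0.401). Without Venus-negative replicate 1 this change was -0.27. The same pattern was seen at chr3:51138643-51146693 on the reverse strand (-1.77 and -3.80 against -4.79 and -4.67) and at chr1:183951156-183986156 on the forward strand (-1.60 and -3.67 against -3.99 and -4.69). At chr17:56691095-56693810 on the reverse strand the bright array was Venus-negative replicate 2 (-3.66 and -1.39 against -3.81 and -4.35). At chr14:27176652-27227602 on the forward strand the Venus-negative arrays lay close together and the Venus-positive arrays apart (-2.55 and -2.72 against -3.65 and -4.70), with a change of -1.54 ± 0.40 (limma adjusted p = 0.132).

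Some intervals were measured in 1 fraction alone. In 97 intervals all passing probes were dim on both Venus-negative arrays, and in 14 on both Venus-positive arrays. Since such intervals were kept because of the brighter fraction, their differences are a description. The fold shown is a lower bound: the bright fraction against the lowest signal well above background on each dim array, or the probe's own signal where higher. The bounds towards the Venus-positive fraction were at least 2.97-fold higher at chr10:92798725-92811622 (forward, 2 probes), 2.95-fold at chr16:25517037-25531362 (reverse), 2.84-fold at chr8:12873805-12880007 (forward), 2.63-fold at chr10:119960546-119979696 (reverse) and 2.62-fold at chr9:57965115-57966614 (reverse). The chromosome 8 bound rests largely on Venus-positive replicate 1, at -2.14 against -4.30 on replicate 2, and is 1.34-fold without it. Without the brighter Venus-positive replicate the other bounds were 2.46-, 2.01-, 1.93- and 2.0-fold, in the order listed. With model-based background correction the log2 changes at these 5 intervals were smaller than the bounds, at 0.40, 0.16, 0.49, 0.27 and 0.32 in the same order.

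Towards the Venus-negative fraction, the Venus-positive signal was at least 4.78-fold lower at chr8:105742425-105852975 (forward), 4.55-fold at chr4:109071198-109078776 (forward), 4.34-fold at chr16:40657997-40658456 (reverse), 3.39-fold at chr16:92126532-92187581 (forward) and 2.97-fold at chr9:51905865-51911474 (reverse), with 1 probe each. The Venus-negative replicates differed widely at the first 4 of these, with levels of -2.06 and -3.64, -1.58 and -4.26, -2.38 and -3.59, and -4.03 and -2.66. Without the brighter of the 2 replicates the bounds were 2.76-, 1.79-, 2.86- and 2.11-fold. The replicates were closest at chr9:51905865-51911474, with -3.28 and -3.79 (2.49-fold without replicate 1). With model-based background correction the 5 changes were -0.73, -0.97, -0.88, -0.60 and -0.58 on the log2 scale, again smaller than the bounds. The forward strand at the latter positions, measured by 1 probe in both fractions, changed by 0.25 ± 0.19.

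The log2 changes of probes of the same interval mostly lay within 0.5 of each other. Of 766 intervals with at least 2 passing probes, all well above background on 4 arrays, 450 had changes of 1 sign throughout. The range between the highest and the lowest log2 change in an interval had a median of 0.263 and a 90th percentile of 0.778. It was at most 0.5 in 591 intervals and at least 1 in 46. Most probes changed little, with quartiles of -0.211 and 0.206 over the 3918 measured on all 4 arrays, so a small range alone does not show agreement. Agreement within intervals was not tested against unrelated probes. Where the mean change was at least 1 in size, 14 of 15 intervals had probes of 1 sign, which a mean of that size makes likely by itself. Probes to 1 interval share their target and are not replicates of the comparison.

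The 5 intervals with the most passing probes named here, 10 each, differed in how closely their probes followed each other. At chr17:26911397-26917047 on the forward strand, probe changes ran from 0.51 to 0.70, and the interval's levels were 0.67 and 0.78 in the Venus-negative and 1.41 and 1.24 in the Venus-positive arrays (0.60 ± 0.12, limma adjusted p = 0.0941). At chr4:129497990-129515290 they ran from -0.29 to -0.06, with fractions that overlapped (-0.14 ± 0.17). At chr5:74487385-74497428 on the forward strand they ran from -0.62 to -0.27, with levels of 1.43 and 1.68 against 1.04 and 1.22 (-0.42 ± 0.15, limma adjusted p = 0.196). The change at chr12:110944403-110988678 on the forward strand was -0.27 ± 0.32, with overlapping fractions and probe changes from -0.79 to 0.01. The remaining interval is chr14:65431652-65437902, described above.

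In a few intervals 1 probe stood apart from the rest. At chr3:19179899-19216399 on the forward strand, 1 of 5 passing probes had levels of -0.25 and -0.14 in the Venus-negative and 2.57 and 2.47 in the Venus-positive arrays. That probe was higher by 2.71 ± 0.11 (6.54-fold), with the lowest adjusted p of any intergenic probe measured on all 4 arrays (limma adjusted p = 0.0278). The other 4 probes of the interval changed by -0.22 to 0.05, and the interval as a whole by 0.45 ± 0.10, which did not pass (limma adjusted p = 0.115). At chr13:19611679-19620954 on the reverse strand, 3 probes measured on all 4 arrays changed by -2.08 to -1.0. Another, dim in the Venus-positive fraction, was at least 2.01-fold lower there, and the remaining probe, dim in the Venus-negative fraction, was at least 1.18-fold higher in the Venus-positive fraction.

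Similar splits occurred in other intervals. At chr15:79764481-79809909 on the forward strand, 1 probe that was dim in the Venus-positive fraction was at least 5.56-fold lower there, and the other 4 changed by 0.23 to 0.50. At chr16:59557120-59602070 on the reverse strand the outlying probe, at 2.46 ± 1.28, rests on Venus-positive replicate 1, with -0.27 against -3.78 on replicate 2. The other probes there changed by -0.50 to 0.46, the last being dim in the Venus-negative fraction (at least 1.38-fold higher). At chr15:61984389-62102500 on the reverse strand, named after its values were seen, 1 probe was higher by 1.45 ± 0.11 (limma adjusted p = 0.0349) while the 3 others changed by -1.22 to -1.07.

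The 26 probes past the threshold therefore do not all stand for whole intervals. They lay in 21 intervals. Of these probes 5 were the single passing probe of their interval, and 21 had others beside them. Of those 21, all the other probes had the same sign for 16 and at least 1 had the opposite sign for 5. Another probe of the interval also passed for 9.

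**Figure D4:**
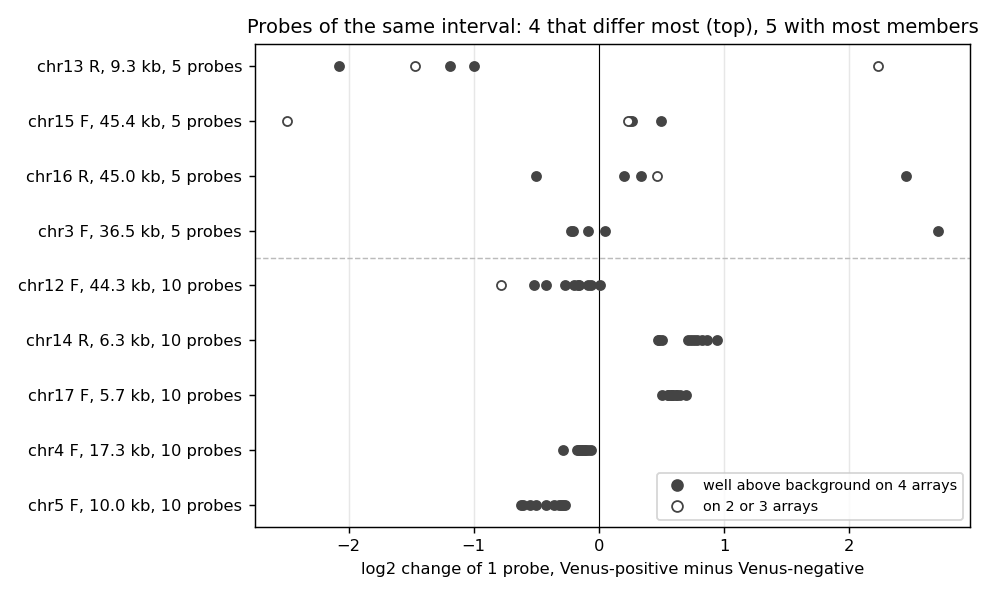
Each row is 1 interval, named by chromosome, strand, length and number of passing probes, and each point is the log2 change of 1 probe, Venus-positive minus Venus-negative, filled where the probe lay well above background on all 4 arrays and open where on 2 or 3. The 4 rows above the dashed line are the intervals whose probes differ most, such as the chromosome 3 interval with 1 probe at 2.71; the 5 rows below it have 10 probes each, with a range from 0.51 to 0.70 in the chromosome 17 row and from -0.79 to 0.01 in the chromosome 12 row. Open points that are dim in 1 fraction are plotted at their measured change, which is larger than their bound at the chromosome 13 interval.

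The strands could be compared at 1067 positions that carry probes to both. Passing probes were found on both strands at 395 of them, on 1 strand at 440 and on none at 232. At 209 of the 395, all passing probes lay well above background on 4 arrays, and the changes of the strands had the same sign at 113. The median absolute difference between the strands' log2 changes was 0.251, and 11 positions differed by at least 1. Among the 47 positions where either strand changed by at least 0.5 in size, 28 had the same sign. None of these differences between strands was tested.

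The positions with the most probes on both strands gave examples of each kind. At chr11:95627874-95640824 the forward strand (9 of 10 probes) had levels of 0.19 and 0.06 in the Venus-negative and 0.56 and 0.63 in the Venus-positive arrays, a change of 0.47 ± 0.10 (limma adjusted p = 0.110). The reverse strand (7 of 9 probes) went from -0.58 and -0.41 to -0.04 and -0.05, a change of 0.45 ± 0.11 (limma adjusted p = 0.124). All 16 probes were positive, and the fractions did not overlap on either strand, though neither passed the threshold. At chr5:74487385-74497428 the forward change of -0.42 stood beside 0.10 ± 0.13 on the reverse strand, which was -0.14 over its probes measured on all 4 arrays and -0.06 with model-based background correction. At chr12:110944403-110988678 the strands changed by -0.27 ± 0.32 and -0.24 ± 0.39, and at chr8:72663625-72673010 by -0.02 ± 0.17 and -0.08 ± 0.11, with overlapping fractions on all 4.

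**Figure D5:**
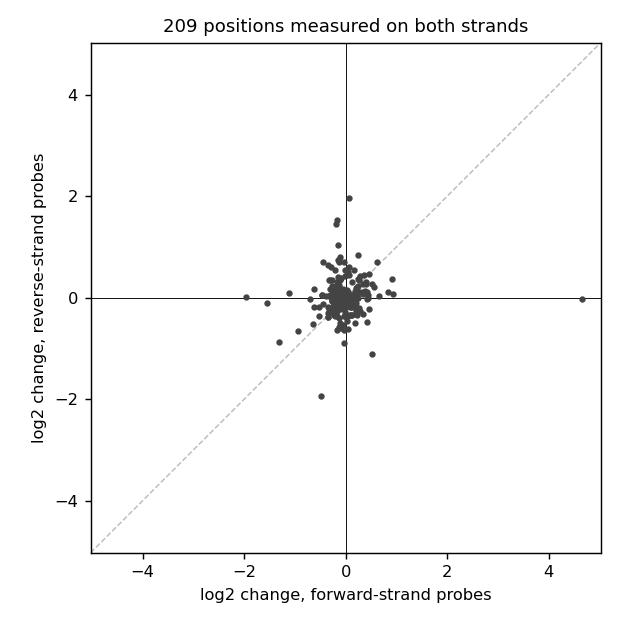
Each point is 1 of the 209 positions measured on both strands on all 4 arrays, with the log2 change of the forward strand on the horizontal and that of the reverse strand on the vertical axis; the dashed line marks equal changes. Most points lie near 0 on both axes, and the largest changes lie along 1 axis, among them the forward change of 4.65 at a position whose reverse strand changed by -0.03.

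Noncoding RNAs that have a gene name were read from the same arrays for comparison. Of a list of 78, 39 were found on the array by symbol and 28 were tested. None passed in limma. Without adjustment, p lay below 0.05 for 4 genes that rose and 2 that fell. The 4 include Hoxd3os1, which passed detection through the Venus-positive fraction alone. By that criterion 11.7% of the features measured on all 4 arrays rose and 10.8% fell. That set leaves out features dim on any array, and the 28 genes do not. Their median log2 change was -0.14, against 0.003 for all features of the fit, dim ones included. The largest value belonged to Hoxd3os1, an antisense transcript of the Hoxd cluster. Its levels were -5.41 and -4.93 in the Venus-negative arrays, where it was not well above background, and -3.34 and -2.98 in the Venus-positive arrays. Its level was at least 3.14-fold higher in Venus-positive cells. Since Hoxd3os1 was kept because of its brighter fraction, this difference is a description. With model-based background correction its log2 change was 0.49, smaller than the bound (1.65 on the log2 scale).

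Among other named noncoding RNAs the values without a call were smaller. Evx1os, antisense at the Evx1 gene beside the Hoxa cluster, changed by -1.04 ± 0.41. Snhg18, a host gene of small nucleolar RNA, changed by -0.89 ± 0.27, and Snhg12, another such host gene, by 0.40 ± 0.16. The imprinted transcripts Kcnq1ot1, Peg13, Airn and Dio3os changed by -0.56 ± 0.14, 0.60 ± 0.16, 0.44 ± 0.21 and -0.41 ± 0.36. Crnde changed by 0.70 ± 0.16, Tug1 by 0.49 ± 0.11, Ftx, a neighbour of Xist, by -0.34 ± 0.15, and Terc, the RNA template of telomerase, by -0.54 ± 0.22. Their limma adjusted p-values ran upward from 0.119.

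The same family of probes also includes 70 that the array names after a known noncoding RNA or gives in another form of position. Of these, 31 were tested and 0 passed in limma. All 5 probes to H19, an imprinted fetal transcript, were measured, with changes of 0.50 to 0.56 and unadjusted p-values of 0.0177 to 0.0407. At the 1 with the lowest of these, levels were 8.54 and 8.72 in the Venus-negative and 9.30 and 9.08 in the Venus-positive arrays, which do not overlap. The 5 probes to TUG1 changed by 0.11 to 0.31 and the 5 to NEAT1, the RNA scaffold of paraspeckles, by -0.15 to 0.02. The NEAT1 changes are imprecise, with SE of 0.51 to 0.60. At the probe with -0.15, levels were -0.47 and 0.54 in the Venus-negative and -0.69 and 0.46 in the Venus-positive arrays. At KCNQ1ot1, 2 of 5 probes were tested, with -0.97 and, at a probe well above background on 1 of the 2 Venus-positive arrays, -0.56. For HOTAIR, a transcript of the Hoxc cluster, 1 of 5 probes passed detection, through the Venus-positive fraction alone. It was not well above background on either Venus-negative array (-4.44 and -5.10). Its levels in the Venus-positive arrays were -3.80 and -3.71, at least 1.87-fold higher (1.61-fold without Venus-negative replicate 2), which is a description. Another HOTAIR probe, which did not pass, was well above background on Venus-negative replicate 2 alone. Its levels were -6.81 and -3.46 in the Venus-negative and -5.30 and -5.44 in the Venus-positive arrays. None of the 5 probes each to XIST, TSIX and PINC passed detection.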

How the data were processed

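Single-colour (Cy3) Agilent arrays were compared, 2 of each fraction. Per the file headers, the authors' deposited scanner tables hold spot intensity values written by Agilent Feature Extraction 10.10.1.1, background-subtracted and detrended within each array. The deposited value table, whose intensity values equal these signals times a constant of each array (1.98 to 2.44; how it was set is not stated), with column medians of 41.0 and 42.3 (Venus-negative) and 41.0 and 38.1 (Venus-positive), served as an alternative.

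Levels are log2 of the processed signal minus log2 of its 75th percentile on the same array; control and outlier spots were left out and spots of a probe averaged. Probes had to be well above background on each array of a fraction, genes were represented by their brightest probe through RefSeq symbols, and unnamed probes stayed as features (23547 in all). For the interval fit, passing probes of an interval and strand were averaged (21172 features). Fractions were compared with limma 3.58.1 (lmFit, eBayes; 2 residual and 1.8 prior degrees of freedom) in R 4.3.3, with the package data.table (version 1.17.8), and Benjamini-Hochberg adjustment over all features at 0.05. SE is the moderated standard error. The fit was tested on simulated data.

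The members and lists were chosen with earlier results of these data known. The rule for named intervals took up to 12 changes per direction on intervals measured on all 4 arrays. Those past the threshold came first, by size. Where fewer passed, the largest changes whose fractions did not overlap were added. Larger changes with overlapping fractions are therefore not named. The rule also took up to 5 bounds per direction and the 5 intervals with most probes. Further intervals were up to 4 with probes on both strands and up to 4 whose probes differ most. Up to 12 named noncoding RNA genes were taken as well. Alternatives were model-based background correction (normexp, offset 50, on median signals, the mean signal column being not used here), median centring, quantile normalization, the value table, other filters, a signal-dependent variance prior, each probe as its own feature, a replicate block and leaving out each array. Coordinates are those of the array design (mm9). Whether the intervals lie in or between genes was not checked against an annotation. Probe sequences were not used here. Precision is limited by the number of arrays.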

Additional observations from a re-analysis of the deposited data

How the results depend on the processing

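With 2 arrays per fraction, and adjusted p-values close to 0.05, counts of calls moved with most settings. In the order probes higher and lower, then intervals higher and lower, the reported counts were 15, 11, 7 and 4. Model-based background correction gave 41, 40, 15 and 14, and a signal-dependent variance prior gave 48, 48, 18 and 15. Median centring gave 30 probes and 14 intervals higher, and 13 and 5 lower, and moved the median change of the probes to 0.06. With probes required to be well above background on all 4 arrays, 25 probes and 11 intervals were higher, and 15 and 7 lower. With all probes kept, 0 passed in limma, with 516 probes and 174 intervals at an unadjusted p under 0.05. Quantile normalization, the authors' value table and each probe as its own feature gave counts within 1.5 times those reported. Without any 1 array the counts were 0 throughout, and the median change of the probes ran from -0.052 to 0.046. Of the 11 called intervals, 10 passed under model-based correction, 11 under median centring and the 4-array filter, 9 under quantile normalization and 10 in the value table. The shares of all features called under these alternatives are not given here. Whether the intergenic probes differed less often than the array under them therefore cannot be read from these counts.

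The fit with the replicate number as a block, at 1 residual degree of freedom, gave 26 probes higher and 23 lower and 20 intervals higher and 13 lower. The labels do not say that a number marks a shared culture. The number coincides with the row on the slide, and the replicate difference correlated between fractions at 0.41 over all features and 0.29 over the probes measured on 4 arrays, a hint from the data, not from the design.

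The following directions reversed, none at a called interval; the causes were not tested. At chr5:74487385-74497428 on the reverse strand the change was -0.0588 under model-based correction, -0.14 with the 4-array filter. At chr8:72663625-72673010 it was 0.047 under median centring on the forward strand, and 0.0094 under quantile normalization on the reverse strand. With all probes kept it was -0.45 at chr4:98943050-98959998 and -0.0474 at chr3:19179899-19216399. With the 4-array filter it was 0.34 at chr15:79764481-79809909. With each array left out in turn, the change ran from -0.0198 to 0.222 at chr5:74487385-74497428 on the reverse strand and from -0.178 to 0.134 at chr8:72663625-72673010 on the forward strand. It ran from -0.339 to 0.0533 at chr4:129497990-129515290, from -0.641 to 0.107 on the forward and -0.705 to 0.222 on the reverse strand at chr12:110944403-110988678, and from -0.85 to 0.0326 for Dio3os.

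Signal over background is a further limit: the median processed signal of the probes was 56.7, and 3918 of the 4665 probes were well above background on all 4 arrays.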
